A study of Mus musculus with 10 samples.

Results

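The death receptor Fas and its signaling complex were followed in mouse liver through 8 genes: the receptor Fas, its ligand Fasl, the adaptor Fadd, the kinase Ripk1, the initiator caspase Casp8, the caspase-8-like inhibitor Cflar, and 2 substrates of caspases, Bid and Casp6. They were chosen by name from the 38922 genes of the tables and all 8 were found. Of these genes only Casp6 codes for a caspase that is classed with the executioners.

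Fas, also called CD95, is a cell surface receptor that carries a death domain. When it is clustered by its ligand or by an activating antibody it recruits FADD, which brings caspase-8 molecules together so that they cleave each other. c-FLIP, the product of Cflar, sits in the same complex and limits that step. In hepatocytes the signal is passed on largely through cleavage of BID, which engages the mitochondria, and executioner caspases then dismantle the cell. The liver is rich in Fas, which is why antibody against CD95 is used as a model of acute liver failure.

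Livers of male wild-type C57BL/6N mice, 6 weeks old, were taken 6 h after a single intraperitoneal injection. In 5 mice the injection was CD95-activating antibody (CD95-Ab) at 0.5 µg per g body weight, and in the other 5 it was the same volume of saline. The labels name no transgene or deleted allele, and the comparison rests on antibody against saline at 1 dose and 1 time. RNA of whole liver was sequenced, so that fewer cells of a type and less RNA per cell cannot be told apart in any value given here.

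Every library contained between 25965699 and 62097636 estimated counts. The livers were hepatic by their markers: albumin (Alb) averaged 84727 CPM, that is, counts scaled to a library of 1000000, after saline and 41434 CPM after CD95-Ab. In 2 libraries, saline 5 and CD95-Ab 4, long genes were read less than short ones: their log2 level relative to the mean of their own treatment group, long minus short, was -0.507 and -0.609, whereas the other 8 lay between -0.086 and 0.358. A length trend that differs between the treatment groups is removed from these values and was not tested. Markers of other cells and RNAs without a poly(A) tail also moved with the treatment. Summed neutrophil markers lay between 4.12 and 10.4 CPM after saline and between 102 and 409 CPM after CD95-Ab, summed hemoglobin and other erythroid genes between 135 and 323 CPM and between 1064 and 33995 CPM, and the untailed RNA Rn7sk averaged 0.392 and 742 CPM. The part of these shifts in the results on the Fas genes was not tested, except for the gene length trend within groups. That trend was met by leaving out libraries and by a covariate. With the trend of each library as a covariate the log2 fold change was 1.36 for Fas, -0.55 for Fadd, 0.78 for Cflar and -1.20 for Casp6, all with an edgeR FDR under the threshold.

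RefSeq start site windows on GRCm38.p6, which run from 250 bases before to 50 bases after the annotated start, were held for all 8 genes. The windows of Fas and Casp6 are shown because these 2 genes had the largest rise and the largest fall of those tested. The Fas window is chr19:34290409-34290708 on the plus strand and the Casp6 window is chr3:129901165-129901464 on the plus strand. Capitals mark the motifs searched on both strands: an AP-1 site (TGANTCA), a GC box (GGGCGG), a STAT type site (TTCNNNGAA) and a kappa B site.
Fas: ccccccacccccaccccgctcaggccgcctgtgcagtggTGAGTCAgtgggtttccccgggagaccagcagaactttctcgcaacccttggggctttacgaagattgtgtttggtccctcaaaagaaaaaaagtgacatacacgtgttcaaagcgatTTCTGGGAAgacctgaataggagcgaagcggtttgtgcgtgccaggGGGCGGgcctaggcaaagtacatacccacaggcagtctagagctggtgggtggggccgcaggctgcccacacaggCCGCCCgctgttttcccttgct
Casp6: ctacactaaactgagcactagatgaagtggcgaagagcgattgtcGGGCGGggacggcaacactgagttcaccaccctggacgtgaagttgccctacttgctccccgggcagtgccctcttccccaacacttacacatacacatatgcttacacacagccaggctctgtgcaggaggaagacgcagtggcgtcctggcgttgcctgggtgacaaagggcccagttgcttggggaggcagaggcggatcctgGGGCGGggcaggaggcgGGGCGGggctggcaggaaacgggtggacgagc
The Fas window held 1 AP-1 match at position -211 from the start, 1 STAT type match at -93 and GC boxes at -47 and 29. An AP-1 match was present in 7.8% of the 32817 windows of the genome and a STAT type match in 8.3%. Of the 8 genes only Fas had the AP-1 letters, and STAT type letters were otherwise found in the second window of Ripk1. Casp6 had 3 GC boxes, at -205, 2 and 19, a motif of 35.6% of all windows that was also present for Fasl, Fadd, Ripk1 and Bid. No window of these genes held the kappa B letters, present in 4.5% of all windows, and the windows of Cflar and Casp8 held none of the 4 motifs. The Casp8 window, chr1:58802252-58802551, lies inside the gene as annotated in GENCODE M21. That annotation starts Casp8 at base 58795374, and the region around it was not searched.

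The transcripts of the pathway moved in different directions after CD95-Ab. Fas, Cflar and Ripk1 were higher, Fadd and Casp6 were lower, and Casp8 and Bid did not pass the test. Hence 5 of the 7 genes that were tested passed an FDR of 0.05 (edgeR quasi-likelihood test, Benjamini-Hochberg over 13719 genes), against 47.3% of all tested genes. The 3 higher genes compare with 25.4% of all genes and the 2 lower genes with 22.0%. None of the 7 changed by 2 or more on the log2 scale, the size passed by 7.70% of all genes. Groups that did not overlap were seen for 2 tested genes that were higher in every CD95-Ab mouse (Fas and Cflar; 18.6% of all genes) and for 2 that were lower in every CD95-Ab mouse (Fadd and Casp6; 14.7% of all genes). The median log2 fold change of the 7 genes was 0.25, and that of all tested genes was 0.006. The shares of calls and of groups that did not overlap rest on 7 genes, and nothing is read from them about the set as a whole.

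**Figure D1:**
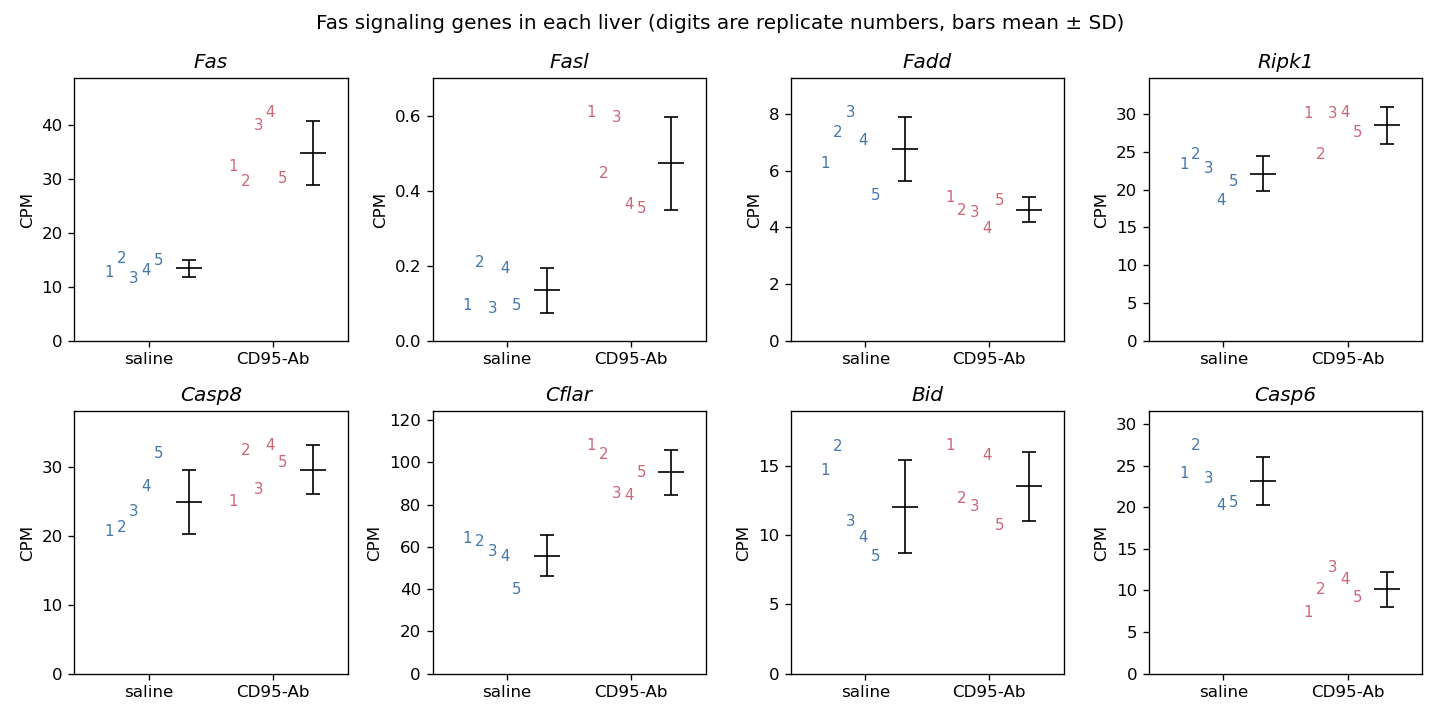
CPM (vertical axis, from 0) of the 8 genes in each of the 5 saline (blue) and 5 CD95-Ab (red) livers, with each digit giving the replicate number of a mouse and the bars the mean ± SD. Fas, Fasl and Cflar lay higher in all 5 CD95-Ab livers, Fadd and Casp6 lay lower in all 5, and Ripk1, Casp8 and Bid overlapped.

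Fas (ENSMUSG00000024778; chr19:34290666-34327772, plus strand) codes for the receptor that the antibody binds. It was measured at 12.6, 15.3, 11.6, 13.0 and 14.9 CPM in saline mice 1 to 5 and at 32.3, 29.6, 40.0, 42.4 and 30.2 CPM in CD95-Ab mice 1 to 5. The lowest treated liver was above the highest control, with CD95-Ab mice 3 and 4 at the top. The mean rose from 13.5 ± 1.58 to 34.9 ± 5.87 CPM (SD, n = 5 each). This was a 2.59-fold rise (95% interval 2.10 to 3.18; log2 fold change 1.37 ± 0.14 SE; edgeR FDR 1.21e-05), which placed Fas at percentile 88.0 of all log2 fold changes.

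The genes whose log2 CPM followed Fas most closely over the 10 livers were Relb, a subunit of NF-kappa B, Rnd3, an atypical small GTPase, and Pkdcc, a secreted kinase. Pearson's r with Fas was 0.993, 0.991 and 0.99 over 10 livers. Most of this reflects the difference between the groups, and with group means taken out r was 0.90, 0.88 and 0.87. These genes were picked for the highest r with Fas over the same 10 livers, which also favors a high r within groups. The r within groups therefore cannot show whether these genes vary with Fas apart from the treatment. Relb went from 2.01 ± 0.626 to 29.1 ± 10.4 CPM, Rnd3 from 16.5 ± 4.24 to 82.7 ± 25.6 CPM and Pkdcc from 14.9 ± 2.02 to 42.3 ± 8.89 CPM (SD, n = 5 each).

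Fasl (ENSMUSG00000000817; chr1:161780689-161788495, minus strand), the ligand, is made mainly by activated T cells and natural killer cells. It was close to the limit of detection, with 4, 7, 3, 5 and 5 estimated counts after saline and 19, 14, 15, 9 and 16 after CD95-Ab. In CPM these were 0.0941, 0.208, 0.0845, 0.192 and 0.0927 against 0.61, 0.446, 0.597, 0.363 and 0.354. All treated livers were above all controls. Fasl did not have the counts to enter the test across all genes. Its means were 0.134 ± 0.0603 and 0.474 ± 0.123 CPM (SD, n = 5 each), a ratio of 3.53, and the difference of log2(CPM + 0.1) was 1.30 (2-sided exact permutation p = 0.00794, the smallest that 5 against 5 can give).

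Markers of T and NK cells moved the same way as Fasl. Of the 11 markers tested 9 were higher, against 25.4% of all genes, and the other 2 did not pass the test. Some were very low after saline, such as Prf1 at 0.105 ± 0.0612 CPM, against 0.838 ± 0.313 CPM after CD95-Ab (SD, n = 5 each). Such a gene entered the test through its counts after CD95-Ab, which favors a higher call. The 9 of 11 therefore cannot be set evenly against the share of all genes. The sum of the list lay between 2.56 and 9.34 CPM after saline and between 12.7 and 19.8 CPM after CD95-Ab. Gzmb, a cytotoxic granule protease, was at 0.998 ± 0.792 and 3.50 ± 1.24 CPM (SD, n = 5 each). Whether the rise in Fasl transcript reflects these cells was not tested.

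Fadd (ENSMUSG00000031077; chr7:144577318-144582463, minus strand) codes for the adaptor between the receptor and caspase-8. Its CPM was 6.26, 7.35, 8.06, 7.08 and 5.14 after saline and 5.07, 4.59, 4.54, 3.96 and 4.96 after CD95-Ab. The groups did not overlap, but saline 5 came within a few hundredths of CD95-Ab 1. Fadd decreased from 6.78 ± 1.12 to 4.62 ± 0.438 CPM (SD, n = 5 each), which left 68.4% (95% interval 54.6 to 85.7; log2 fold change -0.55 ± 0.15 SE; edgeR FDR 0.00981). Saline 5 and CD95-Ab 4, the lowest of their groups, are the 2 libraries with fewer reads on long genes. The single annotated Fadd transcript has 3903 bases, and its antisense gene Faddos, which overlaps 4195 bases of Fadd, averaged 0.0305 ± 0.0181 and 0.0189 ± 0.0184 CPM (SD, n = 5 each). With both libraries left out the log2 fold change was -0.59 (edgeR FDR 0.00363).

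Ripk1 (ENSMUSG00000021408; chr13:34002363-34037147, plus strand) codes for a death domain kinase that couples death receptors to NF-kappa B and to necroptosis. It was at 23.3, 24.7, 22.8, 18.6 and 21.1 CPM after saline and at 30.1, 24.6, 30.1, 30.2 and 27.5 CPM after CD95-Ab. CD95-Ab 2 fell just short of saline 2, and the other 4 treated livers were above every control. The mean went from 22.1 ± 2.35 to 28.5 ± 2.45 CPM (SD, n = 5 each), with a log2 fold change of 0.37 ± 0.11 SE and an edgeR FDR of 0.0161. This call was narrow: it was lost when libraries were scaled by their totals only (log2 fold change 0.27, FDR 0.181), without a filter on low counts (0.33, FDR 0.0559) and without saline 4 (0.29, FDR 0.056). Serpinb6a, on the opposite strand, overlaps 432 bases of Ripk1 and averaged 7.61 ± 0.949 and 16.9 ± 5.63 CPM (SD, n = 5 each), and reads there cannot be assigned by strand if the count ignored it, which is not given in the sources used here.

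Casp8 and Cflar are neighbors on chromosome 1 and code for the initiator caspase and for its inhibitor. Casp8 (ENSMUSG00000026029; chr1:58795374-58847503, plus strand) was at 20.6, 21.2, 23.6, 27.1 and 31.9 CPM after saline and at 25.0, 32.4, 26.7, 33.1 and 30.7 CPM after CD95-Ab. Saline 5 lay among the treated livers, and only CD95-Ab 2 and 4 exceeded all controls. The means were 24.9 ± 4.67 and 29.6 ± 3.60 CPM (SD, n = 5 each). The log2 fold change was 0.25 ± 0.14 SE (95% interval -0.06 to 0.56; edgeR FDR 0.168), an interval that reaches from 0.959-fold to 1.47-fold. Without saline 5 alone the log2 fold change was 0.35 with an FDR of 0.0394, but without both saline 5 and CD95-Ab 4 it was 0.30 with an FDR of 0.0645, and with the length trend of each library as a covariate it was 0.26 with an FDR of 0.0741.

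Cflar (ENSMUSG00000026031; chr1:58711508-58758884, plus strand) codes for c-FLIP. It was at 63.9, 62.7, 57.6, 55.4 and 39.6 CPM after saline and at 108, 104, 85.1, 84.2 and 95.3 CPM after CD95-Ab. All treated livers exceeded all controls, with saline 5 well under the other controls. Cflar rose 1.70-fold, from 55.9 ± 9.74 to 95.2 ± 10.7 CPM (SD, n = 5 each; 95% interval of the fold 1.37 to 2.12; log2 fold change 0.77 ± 0.15 SE; edgeR FDR 0.00108). Without saline 5 the log2 fold change was 0.67.

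The balance of the inhibitor and its caspase was compared inside each library, where it does not depend on how libraries are scaled. The ratio of Cflar to Casp8 counts was 3.11, 2.96, 2.44, 2.05 and 1.24 after saline and 4.32, 3.19, 3.19, 2.54 and 3.10 after CD95-Ab. CD95-Ab 4 fell within the controls and CD95-Ab 5 just under the highest of them. The means were 2.36 ± 0.752 and 3.27 ± 0.649 (SD, n = 5 each). The difference of the mean log2 ratios, which is 1.43-fold, did not pass the test (2-sided exact permutation p = 0.0556, adjusted over 5 ratios 0.0926). Without saline 5 the log2 difference moved from 0.52 to 0.31. As a ratio of FPKM, which divides each gene by its transcript length, the values were 1.48 ± 0.43 and 1.92 ± 0.376. This division does not remove the gene length trend of saline 5 and CD95-Ab 4.

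Receptor and adaptor moved apart. The ratio of Fas to Fadd counts was 2.01, 2.08, 1.44, 1.84 and 2.90 after saline and 6.36, 6.45, 8.77, 10.7 and 6.08 after CD95-Ab. The groups were well separated, and the ratio rose 3.74-fold from 2.05 ± 0.535 to 7.66 ± 2.00 (SD, n = 5 each; exact permutation p = 0.00794, adjusted 0.0397). With saline 5 and CD95-Ab 4 left out the adjusted exact permutation p was 0.0714, in a design of 4 against 4 that allows no unadjusted p under 0.0286. The ratio of Casp8 to Fadd, 3.82 ± 1.38 and 6.47 ± 1.30 (SD, n = 5 each), had an adjusted exact permutation p of 0.0794, and of 0.0198 without saline 5. The ratios of Ripk1 to Casp8 (0.922 ± 0.239 and 0.980 ± 0.183; adjusted exact permutation p = 0.744) and of Bid to Casp8 (0.517 ± 0.220 and 0.466 ± 0.121; adjusted exact permutation p = 0.81) overlapped broadly.

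**Figure D2:**
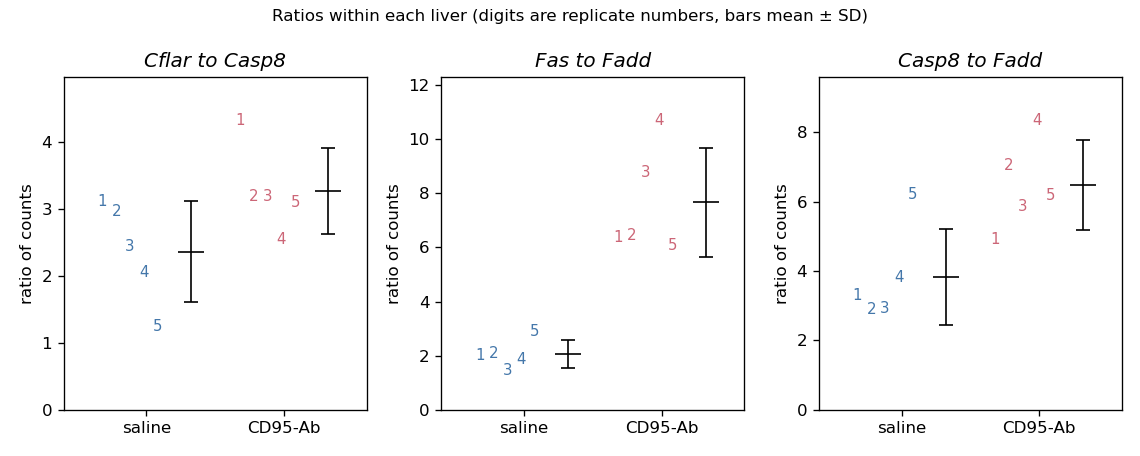
Ratios of estimated counts within each liver (vertical axis, from 0), with digits for the replicate number of saline (blue) and CD95-Ab (red) mice and bars for mean ± SD. The ratio of Fas to Fadd lay between 1.44 and 2.90 after saline and between 6.08 and 10.7 after CD95-Ab, while the ratios of Cflar to Casp8 and of Casp8 to Fadd overlapped between the groups.

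Bid (ENSMUSG00000004446; chr6:120891930-120916853, minus strand) codes for the BH3-only protein through which caspase-8 reaches the mitochondria. It was at 14.7, 16.4, 11.0, 9.85 and 8.45 CPM after saline and at 16.5, 12.7, 12.1, 15.8 and 10.7 CPM after CD95-Ab. The treated livers lay almost wholly within the range of the controls. The means were 12.1 ± 3.34 and 13.6 ± 2.50 CPM (SD, n = 5 each), and the log2 fold change of 0.17 ± 0.20 SE had a 95% interval from -0.26 to 0.59 (edgeR FDR 0.515). It was -0.01 with saline 5 and CD95-Ab 4 left out, and 0.06 to 0.29 with 1 mouse left out. Bcl2l13 on the opposite strand overlaps 913 bases of Bid and averaged 30.5 ± 6.46 and 28.3 ± 4.83 CPM (SD, n = 5 each).

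Casp6 (ENSMUSG00000027997; chr3:129901425-129914103, plus strand), the executioner caspase of the set, was at 24.0, 27.4, 23.4, 20.2 and 20.6 CPM after saline and at 7.28, 10.1, 12.8, 11.3 and 9.12 CPM after CD95-Ab. The highest treated liver was far under the lowest control. Casp6 fell from 23.1 ± 2.92 to 10.1 ± 2.10 CPM (SD, n = 5 each), so that 43.8% was left (95% interval 34.6 to 55.5; log2 fold change -1.19 ± 0.16 SE; edgeR FDR 8.57e-05), and it lay at percentile 4.64 of all log2 fold changes. Of 7 hepatocyte markers 3 were lower (Alb, Ttr and Cyp2e1; 22.0% of all genes were lower) and 4 did not pass the test, among them Tat with a log2 fold change of 0.31 ± 0.32 SE (FDR 0.441). Their sum, most of which is Alb, lay between 97853 and 123814 CPM after saline and between 42459 and 80217 CPM after CD95-Ab. The part of hepatocyte RNA in the fall of Casp6 was not tested.

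Levels of the 8 genes were ordered per transcript length, as FPKM. In saline liver Casp6 had the highest level, 17.5 ± 3.66 FPKM, and was above Cflar (14.7 ± 3.39) in all 5 mice. Fas (10.1 ± 1.46) and Casp8 (10.1 ± 0.806) were not ordered, since Fas was the higher of the pair in 2 of 5 mice. Ripk1 (6.37 ± 1.12) and Bid (5.81 ± 2.22) likewise overlapped, with Ripk1 higher in 3 of 5 mice. Fadd was at 1.84 ± 0.414 and Fasl at 0.076 ± 0.0378 FPKM (SD, n = 5 each).

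After CD95-Ab the order by FPKM was another one. Fas (24.6 ± 2.49) and Cflar (22.1 ± 4.77) were at the top, and Fas exceeded Cflar in 2 of 5 mice only, so the pair was not ordered. Casp8 (11.5 ± 1.33) came next and was above Ripk1 (7.68 ± 1.10) in all 5 mice. Casp6, at 7.01 ± 0.855 FPKM, had gone from the first to the fifth place and was not separated from Ripk1 or Bid (6.44 ± 1.41). Fadd (1.18 ± 0.235) and Fasl (0.248 ± 0.0823 FPKM; SD, n = 5 each) stayed last.

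**Figure D3:**
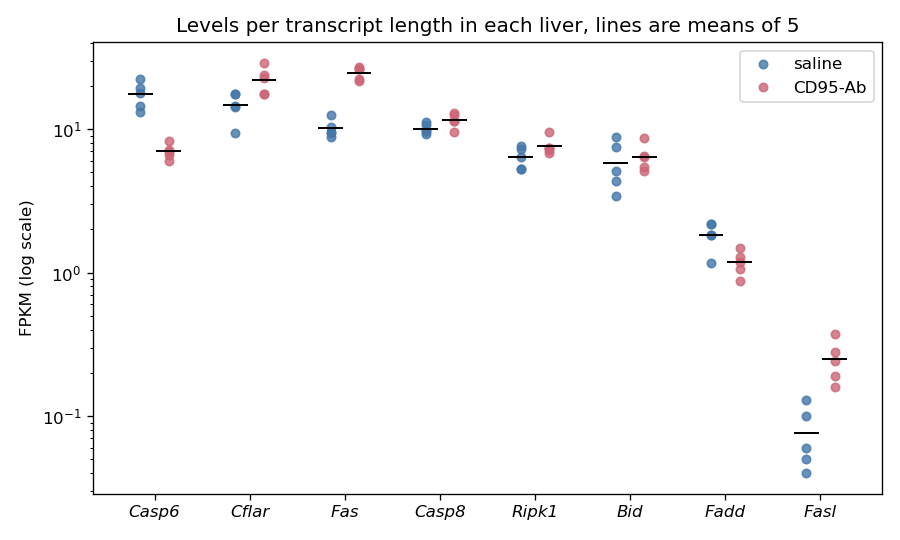
FPKM (log scale) of the 8 genes in each saline (blue) and CD95-Ab (red) liver, ordered by the saline mean, with lines for the means of 5 mice. Casp6 fell from 17.5 to 7.01 FPKM and Fas rose from 10.1 to 24.6 FPKM, while Fasl was the lowest in both groups.

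Cflar is spliced into long and short forms of c-FLIP, and the tables give a trace of the transcript mix: the estimated count divided by FPKM returns the mean transcript length that the quantification used, up to a factor common to a library. For Cflar this implied length was 4070, 4039, 4095, 3861 and 3737 bases after saline and 4206, 4324, 4333, 4128 and 4192 bases after CD95-Ab. All treated livers were above all controls. The mean rose by 7.03%, from 3960 ± 155 to 4237 ± 89 bases (SD, n = 5 each; exact permutation p = 0.00794, adjusted over 7 genes 0.0556), and so did not pass after adjustment. Without CD95-Ab 4 it did, with an adjusted exact permutation p of 0.037. With any other single mouse left out the adjusted exact permutation p lay between 0.0556 and 0.0833. With saline 5 and CD95-Ab 4 both left out it was 0.133, where 4 against 4 mice allow no unadjusted p under 0.0286. Groups did not overlap for 1.97% of the 10151 genes examined, and Cflar was the 1 gene of the 7 for which they did not. The annotation (GENCODE M21) lists 13 Cflar transcripts of 351 to 6572 bases, and which of them changed cannot be read from gene tables.

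Bid went the other way, from 2201 ± 45 to 2053 ± 83 bases (SD, n = 5 each; exact permutation p = 0.0159, adjusted 0.0556). Its values were 2208, 2130, 2219, 2252 and 2195 bases after saline and 2137, 1976, 2108, 2090 and 1952 bases after CD95-Ab, with CD95-Ab 1 above saline 2. The other 5 genes moved by no more than 1.06% in either direction. Fadd, which has 1 transcript in GENCODE M21, changed by 0.263%. Whether the quantification used the same set of transcripts is not known.

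**Figure D4:**
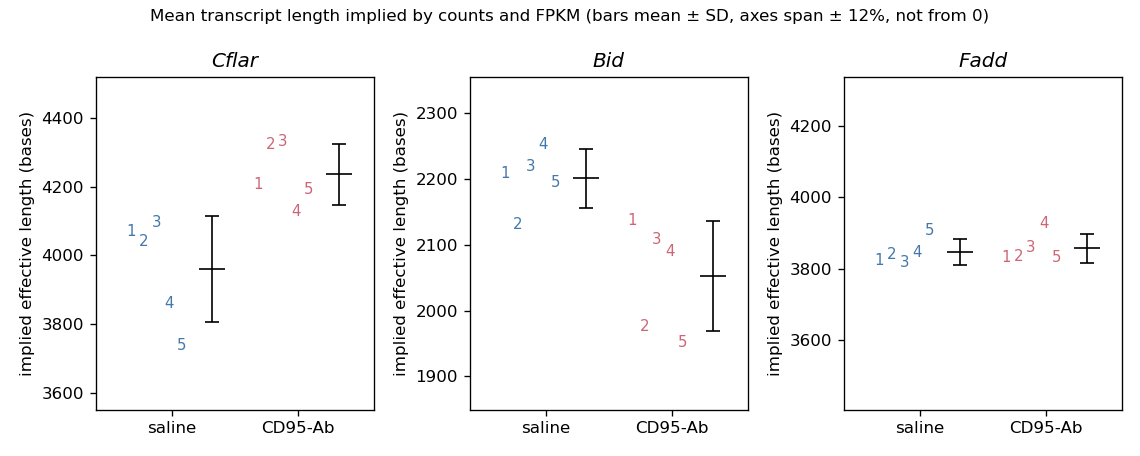
Mean transcript length in bases implied by counts and FPKM for Cflar, Bid and Fadd in each saline (blue) and CD95-Ab (red) liver, with digits for replicate numbers, bars for mean ± SD and axes that span 12% on either side of the middle and do not start at 0. Cflar lay between 3737 and 4095 bases after saline and between 4128 and 4333 bases after CD95-Ab, Bid shifted downward with overlap, and Fadd stayed near 3847 bases.

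The wider pathway was described through 29 other genes, all of them tested. Of these, 17 were higher, 3 were lower and 9 did not pass the test, with a median log2 fold change of 0.74 against 0.006 for all tested genes. Over all tested genes 25.4% were higher and 22.0% were lower, and these shares stand beside the counts of each group of genes below. The lists were chosen with earlier results of these data known. Nothing is therefore read from these counts about the pathway as a whole.

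Downstream of the complex, the executioner steps had no higher gene. Of 3 genes 1 was lower, Dffa, which codes for the inhibitor and chaperone of the apoptotic nuclease, with 16.6 ± 1.25 and 7.61 ± 1.87 CPM (SD, n = 5 each; log2 fold change -1.12 ± 0.17 SE; edgeR FDR 0.000207). Its nuclease partner Dffb had a log2 fold change of -0.33 ± 0.27 SE (FDR 0.325). Parp1, a DNA repair enzyme that caspases cleave, had a log2 fold change of -0.28 ± 0.17 SE (FDR 0.198).

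In the mitochondrial arm 5 of 10 genes were higher and 1 was lower. Apaf1, the scaffold of the apoptosome, had the largest log2 fold change (3.03 ± 0.26 SE; 1.95 ± 0.438 and 16.1 ± 5.94 CPM; edgeR FDR 4.08e-06), followed by Bcl2l1, which codes for the survival protein BCL-XL (2.05 ± 0.27 SE; 28.9 ± 6.96 and 120 ± 46.2 CPM; FDR 8.71e-05). Casp9, the caspase that APAF1 activates, was lower (-0.83 ± 0.15 SE; 15.3 ± 2.37 and 8.56 ± 1.44 CPM; FDR 0.000808). Xiap, an inhibitor of caspases, had a log2 fold change of -0.11 ± 0.14 SE and an FDR of 0.534.

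Among modulators of the complex 7 of 10 were higher and 1 was lower. The largest rises were in Birc3, a ubiquitin ligase that acts on RIPK1 (2.57 ± 0.19 SE; 11.0 ± 2.05 and 65.5 ± 16.2 CPM; edgeR FDR 1.96e-06), and in Pea15a, whose product binds FADD and caspase-8 (1.54 ± 0.13 SE; 8.40 ± 1.07 and 24.5 ± 3.19 CPM; FDR 3.69e-06), level with Birc2, a relative of Birc3 (1.54 ± 0.18 SE; 16.2 ± 1.82 and 47.0 ± 12.9 CPM; FDR 3.91e-05). Tradd, the adaptor of TNF receptor 1, was lower (-0.55 ± 0.17 SE; 7.60 ± 0.896 and 5.19 ± 1.14 CPM; FDR 0.0163). Faf1, a Fas-associated factor, was at a log2 fold change of -0.16 ± 0.17 SE (FDR 0.465).

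Kindred receptors, ligands and necroptosis genes were higher for 5 of 6. Tnf had the largest log2 fold change, 5.58 ± 0.56 SE, from a mean of only 0.0687 ± 0.0597 to 3.65 ± 2.32 CPM (SD, n = 5 each; edgeR FDR 1.29e-05). It entered the test through its counts after CD95-Ab, which favors a higher call. Tnfrsf10b, the mouse receptor for TRAIL, followed at 2.23 ± 0.28 SE (FDR 5.85e-05). The smallest were Tnfrsf1a, the TNF receptor with a death domain (0.96 ± 0.12 SE; 59.0 ± 6.32 and 114 ± 12.1 CPM; FDR 5.69e-05), and Tnfsf10, the ligand TRAIL, which did not pass (0.84 ± 0.42 SE; FDR 0.118).

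**Figure D5:**
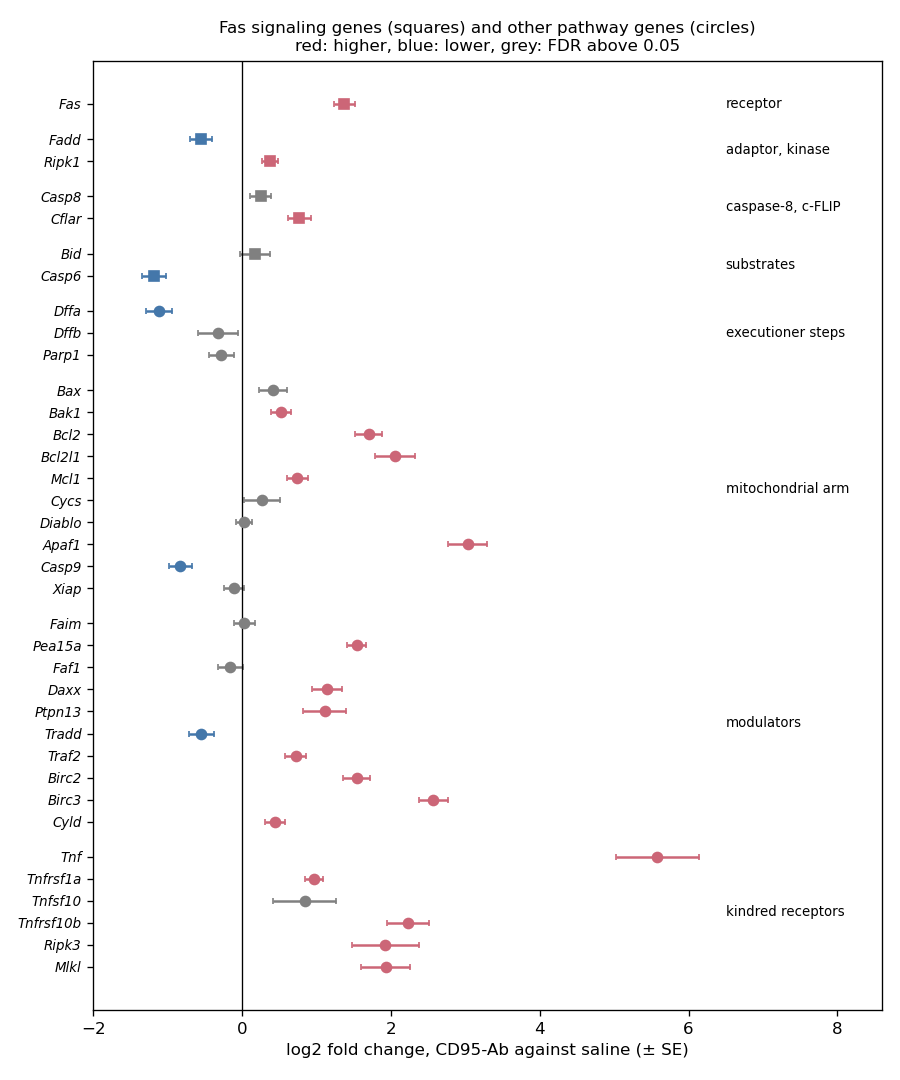
Log2 fold change of CD95-Ab against saline ± SE (horizontal axis) for the 7 tested genes of the Fas complex and its substrates (squares) and 29 other pathway genes (circles), in red where higher, blue where lower and grey where the edgeR FDR was above 0.05. Fas (1.37) was the highest and Casp6 (-1.19) the lowest of the squares, and Tnf (5.58) lay farthest to the right of all.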

How the data were processed

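Livers of 5 saline and 5 CD95-Ab mice were grouped by their labels. RNA (500 ng) was sequenced by the authors as paired reads of 100 bases after TruSeq preparation and quantified with RSEM 1.2.19 (submitters' processing notes); genome build and strand setting are not given in the sources used here. The tables deposited by the authors hold, per gene and mouse, the estimated count of reads that RSEM assigned to a gene and the FPKM that the authors scaled for transcript length and depth. The estimated counts read from these tables were all whole numbers and were used unchanged. The genes and lists were chosen with earlier results of these data known. Symbols came from GENCODE M21, which matched 37606 of 38922 identifiers. The paper's methods name a human Gencode release, although the identifiers are those of mouse genes. The set of transcripts used for quantification is therefore not known.

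Counts were tested with edgeR 4.0.16 (R 4.3.3): TMM factors, filterByExpr with a minimum count of 10, quasi-likelihood F test, Benjamini-Hochberg over 13719 genes, threshold FDR 0.05. Intervals are 95%. CPM are counts per 1000000 of the TMM-scaled library. Ratios (0.5 added to each count), Fasl and implied lengths (genes at FPKM of 0.5 or more in every mouse) were tested by 2-sided exact permutation over 252 arrangements. Replicates differed beyond sampling noise in all 20 pairs within groups (chi-square per degree of freedom 41.0 to 575). The labels call the mice biological replicates. Named genes were the 8 members, the 2 largest and 2 smallest log2 fold changes of each pathway list, the gene of a marker list with the largest mean CPM over all 10 mice, which favors genes that rose, and the 3 genes most correlated with Fas. Some genes of the pathway lists are not reported here. The marker lists are reported in the main text and under other observations. Alternatives were DESeq2 1.42.0, the edgeR likelihood ratio test, limma 3.58.1 (voom), other scalings and filters, a replicate block and leaving out each mouse; chosen after seeing the data were leaving out both length-shifted libraries and a length covariate. The edgeR steps were tested on simulated data.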

Additional observations from a re-analysis of the deposited data

Results flagged for a closer look

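Among 40 groups of 5 values examined for a sample far from the others (CPM, ratios and implied lengths), 2 held one; chance flags about 1 in 20 groups. The ratio of Casp8 to Fadd counts was 6.2 in saline 5, whereas the other 4 saline livers lay between 2.88 and 3.81. The implied length of Fadd was 3926 bases in CD95-Ab 4, whereas the other 4 CD95-Ab livers lay between 3833 and 3859 bases. These are the 2 libraries with fewer reads on long genes.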

How the results depend on the processing

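The direction of Fas, Fadd, Ripk1, Casp8, Cflar and Casp6 was kept under all 22 alternatives, and Fas, Fadd, Cflar and Casp6 also stayed past the threshold. The log2 fold change ranged from 1.27 to 1.43 for Fas, from -0.64 to -0.48 for Fadd, from 0.67 to 0.82 for Cflar and from -1.31 to -1.09 for Casp6. Between 2 and 5 of the 8 genes were called higher, 3 to 5 when a mouse was left out, and 2 were called lower throughout. The 5, without saline 5, were Fas, Cflar, Ripk1, Casp8 and Fasl. Fasl entered that fit through its counts after CD95-Ab, which favors a higher call. Of all 13901 genes tested without saline 5, 3522 were higher, and in the main fit 25.4% were. Of the 29 pathway genes 18 to 21 passed. Bid reversed to -0.01 (FDR 0.964) with saline 5 and CD95-Ab 4 both left out. The log2 difference of Fasl ranged from 0.38 with 1 CPM added to 1.41, with an exact permutation p of at most 0.0286. The log2 difference of the ratio of Cflar to Casp8 (0.52) ranged from 0.31, without saline 5, to 0.64 and never passed the adjusted threshold. The ratio of Fas to Fadd (1.90) lost its call with both libraries left out (1.91; adjusted exact permutation p 0.0714), where 4 against 4 mice allow no unadjusted p under 0.0286, and that of Casp8 to Fadd gained one without saline 5 (0.99; 0.0198). The ratio of Bid to Casp8 (-0.071) changed sign as FPKM (0.015) and without saline 1, saline 2 or CD95-Ab 5 (0.026 to 0.103; -0.282 to 0.103 over all mice left out), and that of Ripk1 to Casp8 without saline 5 (-0.001; up to 0.203 over all mice left out); none of these passed. Implied length gave 0 genes past the adjusted threshold, and 0 to 3 when a mouse was left out, the 3 without CD95-Ab 4, where Cflar, Bid and Casp8 each had an adjusted p of 0.037 in the exact permutation test. The cause was not tested.

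Scaling moved the split of calls: 53.6% of all calls were higher, 46.8% with upper quartile factors and 47.0% with library totals, where the median log2 fold change of all genes was -0.071 and -0.075. Same-numbered mice correlated at 0.257, 0.0875, 0.13, -0.0166 and -0.274 in their deviations, and 2 of 5 correlated best with their own number, so the numbers were not taken to pair mice. With a replicate block 2 of the 8 genes were called higher, 2 lower and 21 pathway genes passed; Ripk1 lost its call (0.37; FDR 0.0511), no other call on the 7 tested genes changed, and the ratios of Cflar to Casp8 and of Fas to Fadd both had an adjusted p of 0.156, a paired exact permutation test of 5 differences that cannot go below 0.0625. Counts of 3 to 19 limit what can be said of Fasl.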

Other observations

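With group means taken out, log2 CPM of Casp8 and Cflar deviated in opposite directions over the 10 livers (Pearson's r -0.75), as did Casp8 and Bid (-0.71), whereas Fadd and Cflar (0.73), Ripk1 and Bid (0.66) and Cflar and Bid (0.65) deviated together. These are descriptions: the livers share the gene length trend of saline 5 and CD95-Ab 4, and each pair shares its libraries.

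For the marker lists, the gene named is the one with the largest mean CPM over both groups. Lyve1 and Hbb-bs were not the highest of their lists after saline, where Stab2 (22.5 ± 4.49 CPM) and Alas2 (88.7 ± 14.6 CPM; SD, n = 5 each) were above them. After saline S100a9 likewise lay under Csf3r (2.16 ± 0.965 CPM), and Rn7sk under Rn7s1 (1.19 ± 0.579 CPM). Gzmb lay under Cd4 (1.07 ± 0.436 CPM) and Gzma (1.01 ± 0.754 CPM; SD, n = 5 each). Over all tested genes 25.4% were higher, and the counts of the short lists below stand beside that share. Of 5 neutrophil markers tested all 5 were higher, and S100a9, a calcium-binding granule protein, went from 1.83 ± 0.54 to 133 ± 54.2 CPM (SD, n = 5 each). Kupffer cell markers were higher for 2 of 7, which is near the share of all genes, and the other 5 did not pass the test. Cd5l, 1 of the 2, was at 95.9 ± 54.4 and 193 ± 62.4 CPM. Sinusoidal endothelial markers were higher for 5 of 6, with Lyve1 at 6.72 ± 3.98 and 71.7 ± 32.0 CPM. Stellate cell markers were higher for 3 of 5, with Dcn at 87.0 ± 10.4 and 251 ± 35.0 CPM, and cholangiocyte markers for 4 of 5, with Spp1 at 24.0 ± 6.22 and 65.9 ± 25.8 CPM. All 5 erythroid genes were higher, with Hbb-bs at 46.7 ± 28.3 and 5325 ± 5267 CPM. Of 8 RNAs without a poly(A) tail 4 were tested and all 4 were higher, and 2 were at 0 in all mice. Of the 4, Rn7s1 and Rn7s2 had the same values (1.19 ± 0.579 and 11.8 ± 6.64 CPM) and cannot be read as separate measurements. Rpph1, at 0.0546 ± 0.0289 CPM after saline, entered the test through its counts after CD95-Ab, which favors a higher call.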
